A study of Mus musculus with 9 samples.

Results

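Gene expression 4 days after induced deletion of Xpc was compared with that of cells in which the gene was intact, in mouse embryonic stem (ES) cells, pluripotent cells derived from the inner cell mass of the blastocyst. The comparison takes 6 of the 9 arrays of the study, chosen by their titles: 3 of induced cells (titled Xpc_f/f+Tx_day4) and 3 of floxed cells (titled Xpc_f/f-Tx). In floxed cells both alleles of Xpc carry loxP sites, the sequences that Cre recombinase joins, and nothing was deleted. Induced cells come from the same kind of floxed cells after Cre had been switched on. The other 3 arrays, of a subcloned line that lacks Xpc (titled Xpc_KO), entered the statistical fit to help estimate the spread and are not described for their own sake. What Tx stands for, its dose, the Cre transgene and the culture conditions are not given in the sources used here. There was no induced group with an intact Xpc gene, so the loss of Xpc and the induction itself cannot be told apart. Whether the 3 samples of a group are separate cultures is not given either, so p-values measure the spread between these samples, which may be technical.

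Xpc recognises distorted DNA and starts global nucleotide excision repair, in which a stretch of a damaged strand is cut out and filled in again. It works in a complex with Rad23b, which stabilises it, and the centrin Cetn2. In ES cells the same complex is known as a coactivator that joins Oct3/4 (encoded by Pou5f1) and Sox2, the transcription factors that hold cells in the pluripotent state. The title of the study concerns this role, so the comparison bears on how much the transcriptome of these cells differed once Xpc had been deleted.

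The signal of a gene is read by a 60-base probe, and 4 probes carry the results that follow: that of the deleted gene, that of the gene that passed the test, and those of the genes with clear separation in either direction, Lefty2 and Stk39. Their leading 30 bases, as the array files give them, are shown 5′ to 3′ in lower case, with nothing marked.
Xpc: tgtttggaccactttcctgggagatacctt
Tmem95: aataaccagacgaagccgaagtggaaatgg
Lefty2: aagggtgtacctgagtctttctggccattg
Stk39: ccattccattctgttgtttacacaattact
By the coordinates in the files, on mouse build mm9, the probes lie at chr6:91439856-91439915 on the minus strand (Xpc), chr11:69691359-69691418 on the minus strand (Tmem95), chr1:182828893-182828952 on the plus strand (Lefty2) and chr2:68048524-68048583 on the minus strand (Stk39). Exon annotation of mm9 was not used here, so whether the Xpc probe lies inside the deleted part is not known.

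Levels are given as log2 of the processed signal relative to the 75th percentile of the same array, and differences as log2 of induced over floxed. On single arrays 47.4% to 57.9% of spots were well above background, and none was saturated. After probes that were dim in all groups had been removed, 19913 genes were tested, 18033 of them above background on all 6 arrays. Floxed arrays 1 and 2 shared slide 1, floxed array 3 lay on slide 2 with an array of null cells, and the 3 induced arrays lay on slide 3. Each slide was scanned on its own, so slide and the difference between floxed and induced cells cannot be told apart except through the null arrays. Floxed array 3 stood apart from the other two: 1020 genes (5.12%) lay more than 1 from the mean of floxed arrays 1 and 2, against 267, 276 and 250 genes for induced arrays 1, 2 and 3. Between single arrays, a noisier measure than against a mean of 2, floxed arrays 1 and 2 differed by more than 1 in 277 genes. On that measure the induced arrays differed from floxed array 1 or 2 in 331 to 406 genes. Floxed array 3 differed from floxed arrays 1 and 2 in 1099 and 1100 genes, from the induced arrays in 729 to 829 and from the null arrays in 372 to 619. By this count it was nearest to the null arrays, and the cause was not tested. The floxed arrays are therefore shown singly for the genes the results turn on. All 10 ES cell markers were above background on all 6 arrays, and their summed signal lay between 965 and 1160 times the 75th percentile.

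Xpc signal was lower in every induced array than in every floxed array. Its level was 0.59, 0.55 and 0.16 in floxed arrays 1 to 3 and -1.11, -0.68 and -1.05 in induced arrays 1 to 3. Floxed array 3 was the lowest of the floxed arrays and still lay above the highest induced array, number 2. The difference of -1.38 (SE 0.20, 95% interval -1.84 to -0.92) left 38.4% of the floxed signal. It had a limma p of 8.15e-05 as the targeted gene and an adjusted p of 0.224 over all 19913 genes. Without floxed array 3 the difference was -1.51 (limma adjusted p = 0.0319). In bulk RNA a smaller number of cells that still express a gene and less RNA in each cell cannot be told apart. The same probe read -0.85, -1.53 and -1.37 in the 3 null arrays, a range that overlapped that of the induced arrays. The signal left in induced cells is therefore no measure of intact Xpc RNA, and its source was not tested.

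No gene of the excision repair list passed over all genes. Its 28 measured members, Xpc included, had a median difference of -0.02, with 10 higher and 17 lower, against -0.00 for all genes tested, and 27 of the 28 had a 95% interval within 1. Of the partners of Xpc, Rad23b was at 3.60, 3.63 and 3.86 in floxed and 3.85, 3.72 and 3.66 in induced arrays. Cetn2 was at 2.42, 2.49 and 3.01 in floxed and 2.85, 2.63 and 2.67 in induced arrays. For both partners the induced arrays lay between the lowest and the highest floxed array, the highest being floxed array 3. The intervals of their differences ran from -0.20 to 0.28 for Rad23b and from -0.28 to 0.43 for Cetn2.

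The damage sensors that act ahead of Xpc at ultraviolet lesions, Ddb1 and Ddb2, differed by 0.00 (interval -0.20 to 0.21) and -0.04 (-0.36 to 0.28). Among the subunits of TFIIH, which opens the helix around a lesion, Gtf2h1 differed most: 3.36, 3.1 and 2.75 in floxed and 3.35, 3.36 and 3.47 in induced arrays, a difference of 0.32 (limma adjusted p = 0.887) with overlapping groups. The helicase gene Ercc2 was higher in each induced array (2.68, 2.74 and 2.73) than in each floxed array (2.64, 2.52 and 2.63), by 0.12 (limma adjusted p = 0.968). The genes of the nucleases that cut the damaged strand, Ercc1, Ercc4 and Ercc5, differed by -0.04, -0.01 and -0.07, none past the test. Xpa, which verifies the lesion, was at 3.23, 3.24 and 2.33 in floxed and 3.22, 3.03 and 3.03 in induced arrays. For Xpa the induced arrays were near floxed arrays 1 and 2, and floxed array 3 was the one that stood apart.

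**Figure D1:**
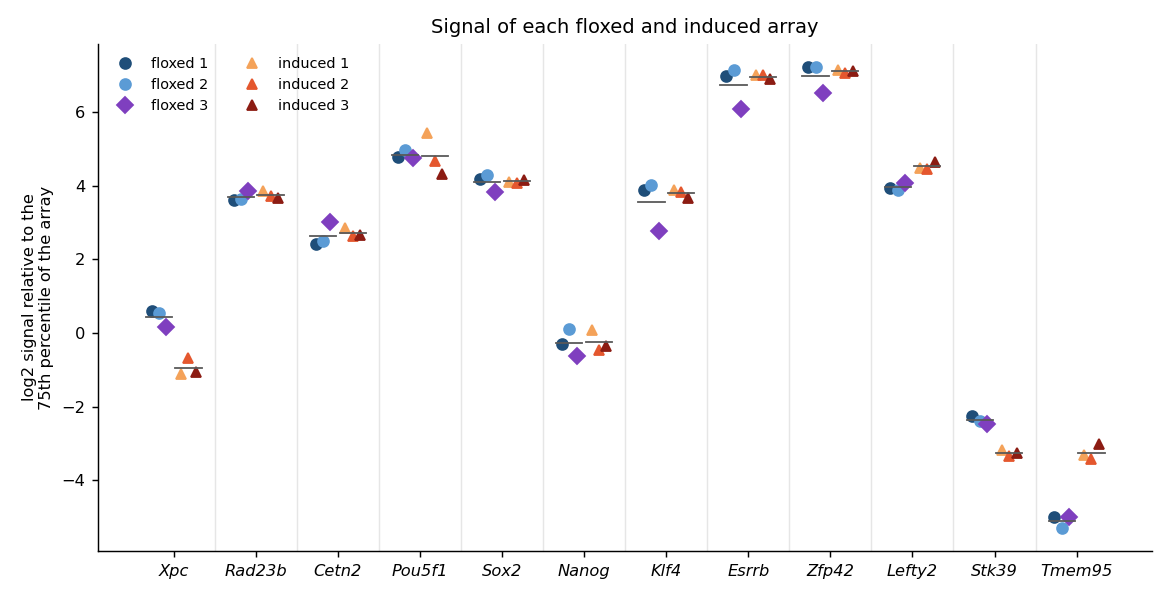
Log2 signal relative to the 75th percentile of the array (y axis) for 12 genes in floxed arrays 1 and 2 (circles), floxed array 3 (diamonds) and induced arrays 1 to 3 (triangles); grey lines are group means of 3 arrays. Xpc and Stk39 are lower, and Lefty2 and Tmem95 higher, in all 3 induced arrays, while for Klf4, Esrrb and Zfp42 floxed array 3 lies below the other 5 arrays.

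Across all genes 1 passed (limma, Benjamini-Hochberg adjusted p under 0.05), which is 0.00502% of those tested, and it entered the test only through the induced arrays, as it was not above background on any floxed array. That gene was Tmem95, whose product sits in the sperm membrane and is needed for fertilisation. Its level was -5.0, -5.29 and -4.99 in floxed arrays and -3.32, -3.42 and -3.01 in induced arrays, where it was above background on all 3. The induced arrays did not overlap the floxed ones. For a fold, each floxed value was raised to the lowest level at which any probe of its array was above background. The induced mean was 1.19-fold the floxed mean obtained in this way. That fold is no strict bound either, since a probe can lie above that level and still not be called above background. The limma adjusted p was 0.00802. The fitted difference, which is measured against a background signal and is no bound, was 1.84, and it shrank to 0.50 (adjusted p = 0.337) with another background correction and to 0.52 (adjusted p = 0.820) in the deposited series matrix, and over all alternatives the adjusted p ran from 0.00343 to 0.820.

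Without adjustment, 673 genes (3.38%) were higher and 504 (2.53%) lower in induced cells at a limma p under 0.05. The 3 induced arrays lay above all 3 floxed arrays for 1321 genes (6.63%) and below them for 1246 (6.26%). Against floxed arrays 1 and 2 alone 7077 genes (35.5%) did not overlap, and against floxed array 3 alone 14149 (71.1%). Fewer floxed arrays make such an order easier to reach without any change, so these counts cannot be compared with each other. The spread was wider among floxed than among induced arrays, with a median SD per gene of 0.18 against 0.12, and of 0.07 when floxed array 3 was left out. With that spread, the 95% interval of a gene's difference had a median half-width of 0.32, a 1.25-fold change. It lay within 1 in either direction for 18346 genes (92.1%) and within 0.5 for 11802 (59.3%). Among the 18033 genes above background on all 6 arrays, 17299 (95.9%) had an interval within 1, and 16 had a difference beyond 1.

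**Figure D2:**
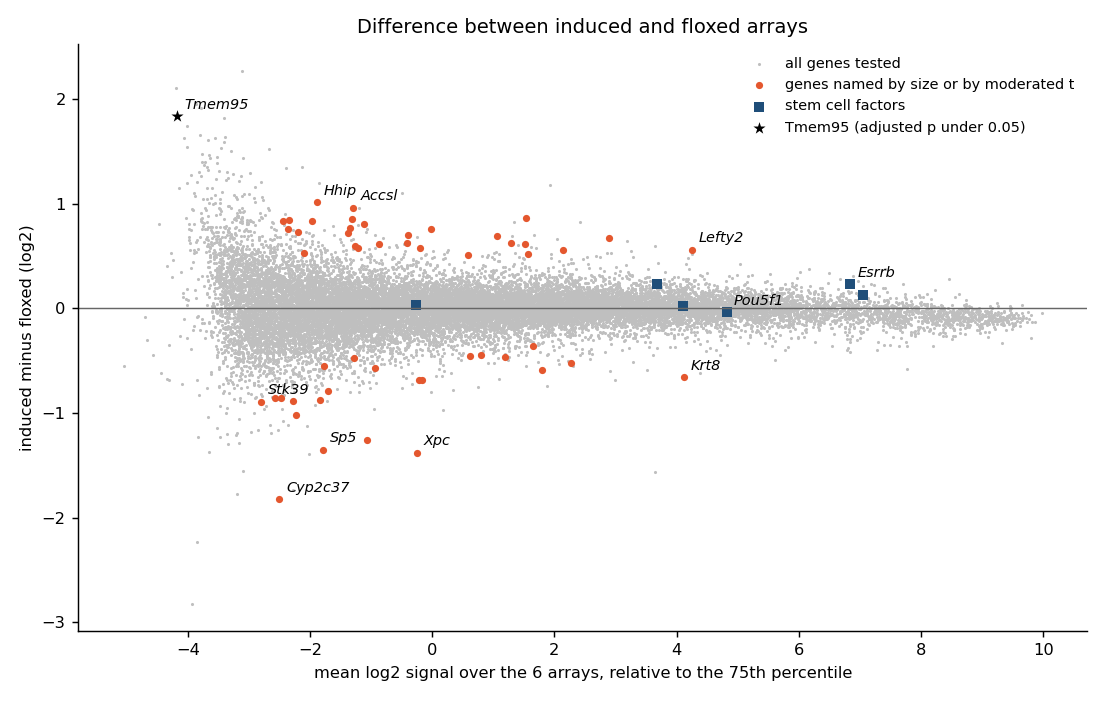
Difference between induced and floxed arrays (log2, y axis) against mean log2 signal over the 6 arrays (x axis) for 19913 genes (grey), with the genes named by size or by moderated t (orange), 6 stem cell factors (blue squares) and Tmem95 (star). Differences spread most among dim genes on the left, Tmem95 lies among the dimmest, and the 6 stem cell factors lie between -0.03 and 0.24.

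The 15 genes with the largest moderated t among those above background on all 6 arrays, 13 of them shown array by array in the plot of those genes, were higher in each induced array than in each floxed array. None passed over all genes. Gtf2a1l, a germ cell relative of the general transcription factor TFIIA, was at -1.73, -1.63 and -1.84 in floxed and -0.82, -1.11 and -1.10 in induced arrays, a difference of 0.72 (limma adjusted p = 0.224). Lefty2, a secreted antagonist of Nodal and a target of Oct3/4 and Sox2, was at 3.94, 3.88 and 4.07 in floxed and 4.48, 4.45 and 4.66 in induced arrays. Its difference of 0.56 (interval 0.34 to 0.78) is a 1.48-fold higher signal. Tfeb, the regulator of lysosome genes, differed by 0.70, with floxed arrays at -0.72, -0.60 and -0.92 and induced arrays at -0.16, 0.00 and 0.03. In Gtf2a1l, Lefty2 and Tfeb the gap between the groups was wider than the whole range of the floxed arrays.

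Fam168a (0.69), Emp1 (0.62), Ahsg, which encodes the plasma glycoprotein fetuin-A (0.62), and Shisa2, which holds Wnt and Fgf receptors back in the endoplasmic reticulum (0.81), had differences of a like size, given here as log2. So did 2 genes of cilia and flagella, Tekt2 (0.57) and Tmem67 (0.53), the noncoding RNA Platr26 (0.56, and 0.67 at its other probe), the prostaglandin synthase Ptgds (0.63) and the drug efflux pump Abcb1b (0.52). Gstt1, a glutathione transferase, was 0.52 higher by its brighter probe and -0.21 by its other probe, so its probes disagreed. By size alone the largest differences without overlap included Hhip, which binds hedgehog ligands (1.02), Accsl (0.96), Napsa (0.85), Zfp521 (0.84), Serpinb6e (0.83), Lrrn4cl (0.83), Shisa2, the cholesterol exporter Abca1 (0.77) and Kcnu1 (0.76). Lrrn4cl shows how narrow some of these gaps were: -2.02, -2.19 and -2.93 in floxed against -1.95, -1.82 and -0.88 in induced arrays.

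At the other end, Stk39, a kinase that regulates ion cotransporters, had a smaller moderated t than Xpc. It was at -2.24, -2.39 and -2.46 in floxed and -3.18, -3.34 and -3.25 in induced arrays, a difference of -0.89 (interval -1.16 to -0.62, limma adjusted p = 0.224), which is 53.9% of the floxed signal. Krt8 and Krt19, keratins that form the filaments of simple epithelia, both lay lower in all induced arrays. Krt8 was at 4.51, 4.44 and 4.39 in floxed and 4.06, 3.56 and 3.74 in induced arrays, a difference of -0.66 (-0.73 at its other probe). Krt19 was at 2.19, 1.99 and 2.09 in floxed and 1.69, 1.41 and 1.41 in induced arrays, a difference of -0.59. In both keratins induced array 1 was the nearest to the floxed arrays.

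Others with small moderated t were Zfp703, a corepressor (-0.69), Rab25, an epithelial vesicle GTPase (-0.68), Stbd1, which binds glycogen (-0.79), and Zyx, a focal adhesion protein (-0.52). The neural filament gene Nes (-0.47), Ddit4l, an inhibitor of mTORC1 (-0.47), Klf7 (-0.36), Rgl3 (-0.57), Cpz (-0.55) and Cpt1c (-0.45, and -0.58 at its other probe) followed. Krt85, a hair keratin, was at -0.44 by its brighter probe and -0.02 by the other. By size, Cyp2c37 (-1.82), Sp5, a target of Wnt signals (-1.35), Zc3h12c (-1.26) and the chemokine Cxcl12 (-1.02) came before the rest. These values rest on unlike floxed arrays: Sp5 was at -1.68, -2.11 and 0.45 and Cxcl12 at -2.45, -2.35 and -0.34 in floxed arrays, so floxed array 3 was the high one. In Zc3h12c it was floxed array 1 that was high (1.02, against -1.17 and -1.16). Vat1l (-0.88), Galnt3 (-0.88), Nup214 (-0.86) and Art3 (-0.86) completed the 10 largest together with Xpc and Stk39, and none passed over all genes.

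**Figure D3:**
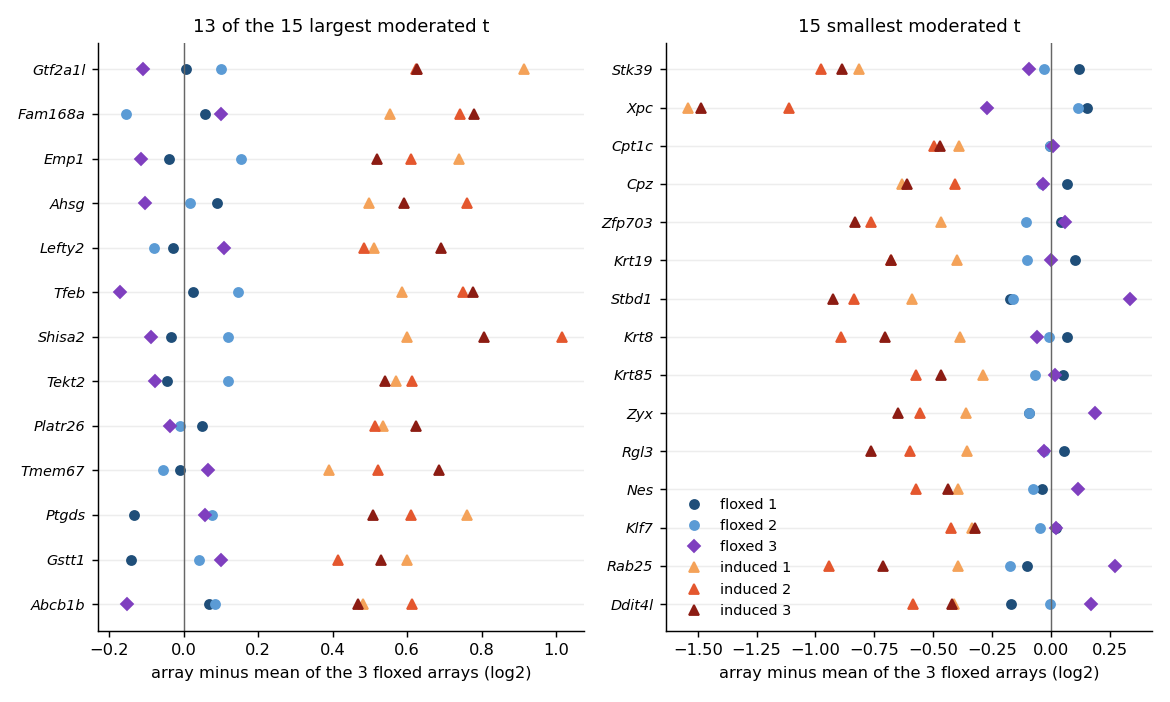
Log2 signal of each array minus the mean of the 3 floxed arrays (x axis) for 13 of the 15 genes with the largest (left) and the 15 with the smallest (right) moderated t, ordered from the top. The 3 induced arrays (triangles) lie on 1 side of all 3 floxed arrays (circles, and diamonds for floxed array 3) in all genes shown, which were chosen by this difference.

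The stem cell factors showed no difference past the test, and their intervals were narrow for Sox2 and wide for Pou5f1. Pou5f1, the gene of Oct3/4, was at 4.78, 4.98 and 4.74 in floxed and 5.42, 4.67 and 4.32 in induced arrays. The induced arrays thus lay on both sides of the floxed ones, and the difference of -0.03 has an interval from -0.66 to 0.60. Sox2 was at 4.17, 4.29 and 3.82 in floxed and 4.11, 4.09 and 4.15 in induced arrays, a difference of 0.02 (-0.26 to 0.31). Nanog was at -0.29, 0.10 and -0.63 in floxed and 0.08, -0.47 and -0.34 in induced arrays (interval -0.42 to 0.48).

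For Klf4, Esrrb and Zfp42 floxed array 3 was the lowest of the 6 arrays, and the groups overlapped. Klf4 was at 3.89, 4.02 and 2.78 in floxed and 3.89, 3.84 and 3.67 in induced arrays (interval -0.40 to 0.87). Esrrb was at 6.97, 7.13 and 6.08 in floxed and 7.0, 6.99 and 6.89 in induced arrays (-0.30 to 0.77). Zfp42, known as Rex1, was at 7.22, 7.21 and 6.51 in floxed and 7.15, 7.06 and 7.10 in induced arrays (-0.29 to 0.53). Without floxed array 3, Sox2 (-0.11), Nanog (-0.15), Klf4 (-0.16), Esrrb (-0.09) and Zfp42 (-0.11) had differences of the other sign, none past the test.

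None of the 20 genes of the core pluripotency list passed, and 19 had an interval within 1. Of the list, 16 were higher and 4 lower, with a median difference of 0.07, against 9883 higher and 9968 lower and a median of -0.00 over all genes. That balance rests on floxed array 3, which had a list median of -0.58 against floxed arrays 1 and 2, while induced arrays 1 to 3 stood at -0.03, -0.12 and -0.13. Utf1, a chromatin factor of ES cells, was the 1 member without overlap: 5.91, 5.92 and 6.08 in floxed and 5.77, 5.71 and 5.77 in induced arrays, a difference of -0.22. Tbx3, which had the widest interval of the list (-0.82 to 1.20), was at 4.06, 4.20 and 2.19 in floxed and 3.64, 3.80 and 3.57 in induced arrays.

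Among 20 known targets of Oct3/4 and Sox2, 14 were higher and 6 lower (median 0.07), and none passed. Against floxed arrays 1 and 2 the list median was 0.106, 0.013 and -0.014 in induced arrays 1 to 3. For all genes it was 0.051, -0.011 and -0.016. Floxed array 3 had a list median of -0.02. Of the 20 targets, 5 lay higher without overlap and 1, Utf1, lower, against 6.63% and 6.26% of all genes. Besides Lefty2, those higher included Jarid2, a polycomb partner (3.84, 3.91 and 3.78 in floxed and 3.96, 4.13 and 4.15 in induced arrays), Mycn (difference 0.19) and Rif1 (0.10). Fgf4, a growth factor that depends on both, was at 5.38, 5.43 and 5.38 in floxed and 5.52, 5.46 and 5.36 in induced arrays, and its groups overlapped (interval -0.16 to 0.27).

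LIF keeps mouse ES cells undifferentiated through Stat3. Of 18 genes of this pathway 15 were higher and 3 lower, with a median difference of 0.17, and none passed. Stat3 itself was at 3.11, 3.04 and 2.75 in floxed and 3.17, 3.29 and 3.31 in induced arrays, and the receptor gene Lifr was at 2.24, 2.27 and 1.95 in floxed and 2.35, 2.53 and 2.40 in induced arrays. The feedback inhibitor Socs3 was at 3.78, 3.81 and 2.46 in floxed and 3.95, 3.98 and 3.90 in induced arrays. In all 3 genes the induced arrays lay above every floxed array, and the largest gap was to floxed array 3. At other probes Lifr differed by 0.153 and 0.067, and Stat3 by 0.315. Of the 18 genes 4 were higher and 1 was lower without overlap, against 6.63% and 6.26% of all genes. The list median of floxed array 3 was -0.59 against floxed arrays 1 and 2, and those of induced arrays 1 to 3 were 0.01, -0.05 and -0.03.

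Genes of the primed epiblast, the state that follows naive pluripotency, had a median difference of -0.14 (17 measured, 5 higher and 12 lower, none passed). Fgf5, a marker of that state, was at -0.73, -0.69 and 1.85 in floxed and -0.25, -0.22 and -0.06 in induced arrays. Dnmt3b, a de novo DNA methyltransferase, was at 5.37, 5.46 and 6.62 in floxed and 5.58, 5.53 and 5.58 in induced arrays. Both genes were highest in floxed array 3, and the induced arrays lay above floxed arrays 1 and 2 by less than floxed array 3 did. The list median of floxed array 3 was 0.80 against floxed arrays 1 and 2, and those of induced arrays 1 to 3 were 0.14, 0.19 and 0.16. Cldn6, a tight junction gene (difference -0.45), the Wnt receptor gene Fzd2 (-0.31) and the transcription factor gene Zic5 (-0.14) lay lower in all induced arrays. They were 3 of the 17 measured, against 6.26% of all genes.

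**Figure D4:**
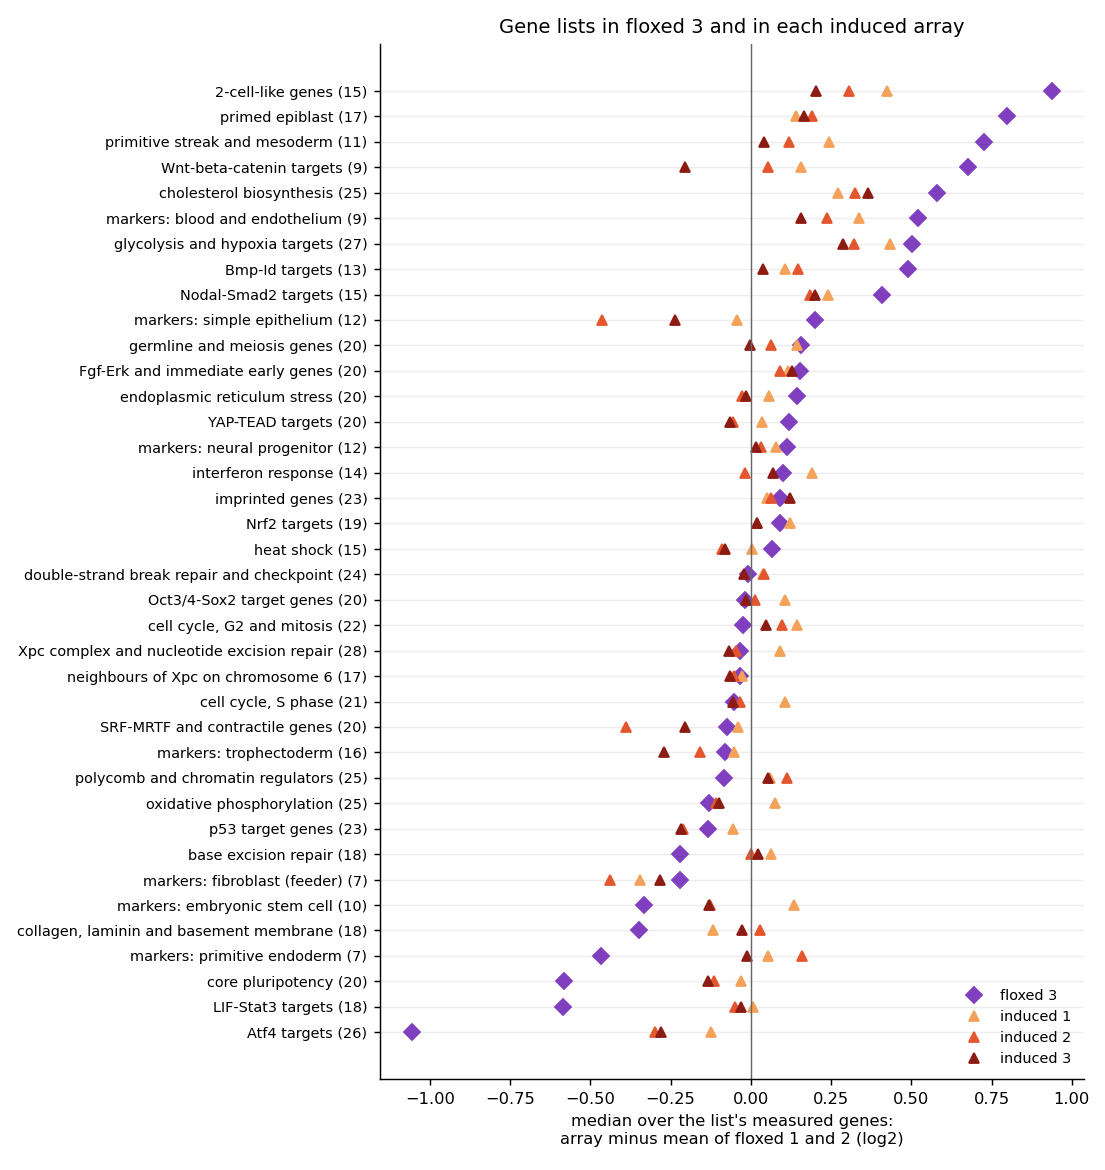
Median over the measured genes of each of 38 lists (number measured in parentheses) of the log2 signal of an array minus the mean of floxed arrays 1 and 2 (x axis), for floxed array 3 (diamonds) and induced arrays 1 to 3 (triangles). Floxed array 3 runs from -1.06 (Atf4 targets) to 0.94 (2-cell-like genes), while the induced arrays stay between -0.46 and 0.43.

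All 12 measured genes of the simple epithelium list were lower in induced cells by their group means, with a median difference of -0.25 and 3 of them (Krt8, Krt19 and Cldn3) without overlap, against 6.26% of all genes. None passed, 5 had an unadjusted limma p under 0.05, against 2.53% of all genes, and the 12 intervals all lay within 1. Krt18, the partner of Krt8 in filaments, was at 6.03, 6.06 and 5.48 in floxed and 5.69, 5.15 and 5.25 in induced arrays (difference -0.49). Cldn7, a tight junction gene, was at 2.50, 2.41 and 2.99 in floxed and 2.52, 1.88 and 2.18 in induced arrays (-0.44). Epcam (-0.14) and Cdh1, the gene of E-cadherin (-0.13) differed less and overlapped. The arrays were not alike in this: against floxed arrays 1 and 2 the list median was -0.04 in induced array 1, -0.46 in induced array 2 and -0.24 in induced array 3. Without induced array 1 the difference was -0.41. The summed signal of the list was 106 to 124 times the 75th percentile in floxed and 74.3 to 103 times in induced arrays.

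Contractile genes and other targets of SRF and MRTF, the factors that couple actin to transcription, showed a like order of arrays. Of 20 measured, 16 were lower and 4 higher, the median was -0.22, 5 were lower at an unadjusted limma p under 0.05 (2.53% of all genes), and none passed. Tagln, an actin binding protein of smooth muscle, was at 4.77, 4.76 and 4.54 in floxed and 4.42, 3.88 and 3.94 in induced arrays (difference -0.61). The tropomyosin gene Tpm1 was at 3.46, 3.43 and 3.34 in floxed and 3.18, 2.94 and 2.96 in induced arrays (-0.38, and -0.13 to -0.29 at its 5 other probes). Both lay lower in all induced arrays, again least in induced array 1. Acta1 (-0.97) and Acta2 (-0.74), which encode muscle actins, overlapped because floxed array 3 was low (0.16 in Acta1 and 1.52 in Acta2, against 0.82 or more and 2.54 or more in floxed arrays 1 and 2). With slide as a fixed block, which rests on floxed array 3 and the null arrays, both had the other sign (0.35 and 0.23), as did Krt18 (0.14), while Krt8, Krt19, Tagln and Tpm1 stayed lower (-0.46, -0.46, -0.42 and -0.34).

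Some of these genes also mark cells other than ES cells. Of 16 fibroblast markers 7 were measured, and 9 were not (Lum, Dcn, Postn, Pdgfra, Pdgfrb, Prrx1, Twist1, Fap and Col5a2), since they were not above background on all arrays of any group. The 7 had a median difference of -0.34 (5 lower, 2 higher), and their summed signal was 28.0 to 31.5 times the 75th percentile in floxed and 18.4 to 25.1 times in induced arrays, most of it from Tagln. The list of collagens, laminins and basement membrane genes, 18 measured, had 9 higher and 9 lower, and its members Lamc1 (0.30) and Nid1 (0.38), of the basement membrane, were higher without overlap. Col1a1 was at -0.42, -0.48 and -0.88 in floxed and -0.92, -0.78 and -0.73 in induced arrays. The 16 measured trophectoderm markers, 3 of which (Krt7, Krt8 and Krt18) are also on the epithelium list, had a median of -0.16. Their summed signal was 91.8 to 130 times the 75th percentile in floxed and 80.1 to 108 times in induced arrays. Elf5 and Plac1 were not measured, and Tfap2a was not well above background in any floxed array. With floxed values raised as for Tmem95, the induced mean of Tfap2a was 1.45-fold the floxed mean, which is no strict bound, and it did not pass. Cdx2 was at -2.62, -2.13 and -1.16 in floxed and -1.95, -2.32 and -3.11 in induced arrays. What part such cells have in the lower keratin and contractile signals was not tested.

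Signals of the Tgf-beta family were read through ligands, antagonists and targets. Of 15 genes of the Nodal-Smad2 list 10 were higher and 5 lower (median 0.11, none passed), and against floxed arrays 1 and 2 the list stood at 0.24, 0.18 and 0.20 in induced arrays 1 to 3 and at 0.41 in floxed array 3. Lefty1, the sister gene of Lefty2, was at 3.81, 3.65 and 4.39 in floxed and 4.47, 4.34 and 4.49 in induced arrays. Here floxed array 3 overlapped the induced arrays, whereas in Lefty2 it did not. Nodal itself was at 3.30, 3.17 and 3.64 in floxed and 3.53, 3.53 and 3.40 in induced arrays (difference 0.12). Fst, which encodes the activin antagonist follistatin, lay lower in the induced arrays (-1.92, -1.89 and -2.00) than in the floxed arrays (-1.56, -1.84 and -0.09).

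Among 13 genes of the Bmp-Id list 6 were higher and 7 lower, none past the test. Id4, an inhibitor of helix-loop-helix factors, was higher without overlap: -1.84, -1.56 and -1.67 in floxed and -1.12, -1.13 and -1.15 in induced arrays, a difference of 0.56 (limma adjusted p = 0.274). The homeobox gene Msx2 was lower without overlap (-0.36). Id2 was at 0.79, 0.88 and 1.84 in floxed and 1.69, 1.75 and 1.55 in induced arrays, so that floxed array 3 overlapped. Of 20 genes of Fgf-Erk signalling and the immediate early response 12 were higher and 8 lower. Phlda1 was lower without overlap (1.36, 1.25 and 1.20 in floxed and 0.87, 0.68 and 0.70 in induced arrays), and the feedback inhibitors Spry4 (difference 0.30) and Spred1 (0.31) were higher without overlap. Egr1 was at -0.54, -0.55 and 0.30 in floxed and 0.21, 0.21 and 0.44 in induced arrays.

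Of 17 Wnt target genes 9 were measured, and 3 were higher and 6 lower with a median of -0.10. Sp5, given above, and the feedback inhibitor Nkd1 (-0.31) lay lower in all induced arrays. Cdx1 was at -1.70, -0.68 and -1.24 in floxed and -1.68, -1.81 and -1.92 in induced arrays, overlapping. Lef1, a partner of beta-catenin on DNA, was at -0.11, -0.37 and 2.46 in floxed and 0.60, 0.58 and 0.64 in induced arrays, so the induced arrays lay between the floxed ones. Targets of YAP and TEAD, 20 measured, had a median of -0.06 with 6 higher and 14 lower and no member without overlap.

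Deletion of a repair gene raises the question of a damage response, and p53 is the factor that answers DNA damage. Its 23 measured targets were mostly lower: 20 lower, 2 higher and 1 at a difference of 0.00, with a median of -0.11, and none passed. Cdkn1a, the cell cycle inhibitor p21, was at 1.04, 1.01 and 0.85 in floxed and 0.93, 0.59 and 0.62 in induced arrays (difference -0.26, overlapping). Mdm2, the negative regulator of p53, was at 5.14, 5.24 and 4.87 in floxed and 4.96, 4.74 and 4.87 in induced arrays (-0.22). Plk2 was the member without overlap (-0.25), and Btg2 (-0.43) and Perp (-0.42), the latter also a junction gene of epithelia, had an unadjusted limma p under 0.05. Of the 23 targets 3 were lower at that p, against 2.53% of all genes. All 23 intervals lay within 1. Against floxed arrays 1 and 2 the list stood at -0.06, -0.21 and -0.22 in induced arrays 1 to 3 and at -0.13 in floxed array 3, so floxed array 3 lay on the side of the induced arrays.

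Genes of G2 and mitosis went mostly the other way, with 20 of 22 measured genes higher, a median of 0.09, 6 without overlap (6.63% of all genes) and none past the test. Cenpe, a kinetochore motor, was at 4.79, 4.76 and 4.51 in floxed and 4.99, 4.97 and 4.87 in induced arrays (difference 0.26). Bub1, a spindle checkpoint kinase, was at 2.84, 2.84 and 2.89 in floxed and 3.02, 3.02 and 3.04 in induced arrays (0.17). The other members without overlap were Bub1b (0.10), Kif11 (0.15), Ttk (0.15) and Nusap1 (0.19), all with intervals that include 0. S phase genes had a median of 0.02 (12 higher and 8 lower of 21).

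Of base excision repair, 12 of 18 genes were higher and 6 lower (median 0.03). The glycosylase gene Neil2 was at 1.79, 1.53 and 0.92 in floxed and 1.97, 2.08 and 1.94 in induced arrays (difference 0.58, limma adjusted p = 0.666), and Mbd4 was higher without overlap by 0.29. Of 24 genes of double-strand break repair and the checkpoint 16 were higher and 8 lower (median 0.06), with no unadjusted limma p under 0.05. The kinase gene Chek1, lowest in p there, was at -3.66, -3.38 and -2.55 in floxed and -3.76, -3.43 and -3.67 in induced arrays, above background on 1 array of each group.

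Cholesterol synthesis genes, which SREBP2 drives together, were higher in 22 of 25 members by group means (median 0.13), and none passed. Hmgcs1, the entry enzyme, was at 3.67, 3.83 and 4.55 in floxed and 4.02, 4.14 and 4.20 in induced arrays. In this gene the induced arrays lay between floxed arrays 1 and 2 below and floxed array 3 above. Insig1, which holds SREBP2 back, was without overlap: -0.62, -0.70 and -0.14 in floxed and -0.11, 0.14 and 0.24 in induced arrays (difference 0.58, limma adjusted p = 0.567). Against floxed arrays 1 and 2 the list stood at 0.27, 0.32 and 0.36 in induced arrays 1 to 3 and at 0.58 in floxed array 3, so the difference was 0.30 without floxed array 3 and -0.22 against floxed array 3 alone.

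Glycolysis and hypoxia targets followed the same order. Of 27 measured, 23 were higher and 4 lower (median 0.15), and against floxed arrays 1 and 2 the induced arrays stood at 0.43, 0.32 and 0.29 and floxed array 3 at 0.50. Ldha, which makes lactate, was at 7.99, 7.88 and 9.07 in floxed and 8.67, 8.54 and 8.56 in induced arrays. Aldoc, an aldolase, was without overlap (2.96, 2.78 and 3.19 in floxed and 3.59, 3.58 and 3.41 in induced arrays), a difference of 0.55 (limma adjusted p = 0.406). Pdk1, which limits pyruvate entry into mitochondria, was also higher without overlap (0.17), and 1 member of the list was lower without overlap. Subunits of oxidative phosphorylation had a median of -0.01 (9 higher and 15 lower of 25) and no member without overlap.

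Atf4 drives genes of amino acid synthesis and the integrated stress response. Of 26 measured, 20 were higher and 6 lower (median 0.10), none passed, and none had an unadjusted limma p under 0.05. The sign depends on floxed array 3, which had a list median of -1.06 against floxed arrays 1 and 2, while the induced arrays stood at -0.12, -0.30 and -0.28. Chac1, which degrades glutathione, was at 3.57, 3.53 and 0.68 in floxed and 3.34, 2.95 and 3.06 in induced arrays. Asns, asparagine synthetase, was at 7.16, 7.20 and 5.83 in floxed and 6.82, 6.53 and 6.49 in induced arrays. In both genes the induced arrays lay below floxed arrays 1 and 2 and above floxed array 3, and the median difference without floxed array 3 was -0.24.

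No gene of the other stress programmes passed. Heat shock genes had a median of -0.12 (12 lower and 3 higher of 15), with Hspa4l (-0.16), Dnajb1 (-0.15) and Bag3 (-0.12) lower without overlap. The share of all genes lower in this way was 6.26%. Nrf2 targets had a median of 0.03, with the glutathione synthesis gene Gclc higher without overlap (2.85, 2.92 and 2.94 in floxed and 3.0, 3.15 and 3.18 in induced arrays). Genes of endoplasmic reticulum stress had a median of 0.03 and no member without overlap. Of 24 interferon response genes 14 were measured, 8 higher and 6 lower (median 0.07), with Stat2 higher (0.23) and Gbp2 lower (-0.62) in all induced arrays. Only 10 of the 14 had an interval within 1.

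Of 25 polycomb and chromatin regulators 19 were higher and 6 lower (median 0.09), and none passed. Dnmt3l, a cofactor of DNA methylation, was at 5.72, 5.79 and 6.05 in floxed and 6.30, 6.17 and 6.12 in induced arrays (difference 0.34). Tet1, which oxidises methylcytosine, was at 4.93, 4.89 and 4.48 in floxed and 4.94, 5.19 and 5.04 in induced arrays (0.29, and 0.150 and 0.151 at its other probes). Both were higher without overlap, as was Jarid2, so 3 of the 25 against 6.63% of all genes. Imprinted genes had a median of 0.02, with Phlda2 at a difference of 0.41 and overlapping. Of 30 germline and meiosis genes on the array 20 were measured (median 0.16). Against floxed arrays 1 and 2 the list stood at 0.144, 0.061 and -0.003 in induced arrays 1 to 3 and at 0.155 in floxed array 3. Tmem95 was the 1 that passed, and as it entered the test only through the induced arrays, it says nothing of the list. Sycp1, of the synaptonemal complex, was at -1.50, -2.03 and -2.01 in floxed and -1.59, -1.20 and -1.36 in induced arrays, overlapping. Genes of the 2-cell-like state were highest in floxed array 3 (list median 0.94 against floxed arrays 1 and 2, and 0.42, 0.31 and 0.20 in induced arrays 1 to 3). In that list Zscan4c was at 2.77, 2.49 and 3.65 in floxed and 3.50, 3.48 and 3.18 in induced arrays.

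Markers of further lineages were partly below background. Of 16 primitive endoderm markers 7 were measured, with Gata6, Sox17, Sox7 and Foxa2 not among them, and their summed signal was 23.1 to 23.2 times the 75th percentile in floxed and 24.6 to 25.9 times in induced arrays. Neural progenitor markers (12 of 16 measured) summed to 11.2 to 13.9 times in floxed and 10.8 to 12 times in induced arrays, and Nes, the 1 with an unadjusted limma p under 0.05, was at 1.39, 1.35 and 1.54 in floxed and 1.03, 0.86 and 0.99 in induced arrays. Blood and endothelial markers (9 of 12 measured, Ptprc and Cdh5 not) summed to 37.3 to 54.5 times in floxed and 36.8 to 41.0 times in induced arrays.

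When floxed array 3 was left out, 145 genes passed: 133 higher (0.668% of those tested) and 12 lower (0.0603%). Of the higher genes 94, and of the lower 10, were above background on all 6 arrays, and 31 of the higher were above background on 1 floxed array only. Of these, 34 of the higher and 4 of the lower have predicted or identifier names. The left-out array is independent of that test, but its difference from floxed arrays 1 and 2 shares those arrays with the difference of the induced cells. Of the 133 higher genes, floxed array 3 lay beyond all 3 induced arrays for 81, among them for 20 and short of them for 32. The same order over all 10089 genes with a higher induced mean was 4124 beyond, 2799 among and 3166 short. Of the 12 lower genes floxed array 3 lay beyond the induced arrays for 5, among them for 2 and short of them for 5.

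Without overlap of all 6 arrays, above background on all of them and past the test without floxed array 3, the rises included Accsl (1.23), Osta, a bile acid transporter subunit (0.92), and Dpysl3, of neuronal growth cones (0.89). They also included Defa-ps1 (0.82), the Ras relative Mras (0.78), Insig1 (0.75), Fam168a (0.74) and Gtf2a1l (0.67), and Lefty2 (0.62) passed as well (limma adjusted p = 0.0388). The falls of named genes by the same rule were Xpc (-1.51) and Stk39 (-0.94, limma adjusted p = 0.0319). Floxed array 3 lay near the mean of floxed arrays 1 and 2 in Lefty2 (0.16), Gtf2a1l (-0.16), Fam168a (0.15) and Stk39 (-0.14).

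Examples of the opposite kind, picked after their values were seen, are Lef1 and Fgf15. For Lef1 the induced cells were 0.85 above floxed arrays 1 and 2 and floxed array 3 was 2.70 above them. Fgf15, a growth factor of the early embryo, was at -2.23, -2.19 and 0.15 in floxed and -1.41, -1.57 and -1.53 in induced arrays. Slc16a3, a lactate exporter, was at 3.06, 2.80 and 5.07 in floxed and 3.79, 3.74 and 3.76 in induced arrays. Among the falls, Acta2 and Ankrd1, another SRF and YAP target (-2.01, -2.21 and -3.66 in floxed and -2.74, -3.1 and -3.23 in induced arrays), had floxed array 3 at or near the level of the induced arrays or below it. These genes passed against floxed arrays 1 and 2, and the floxed array that the test did not use lay on the side of the induced arrays.

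**Figure D5:**
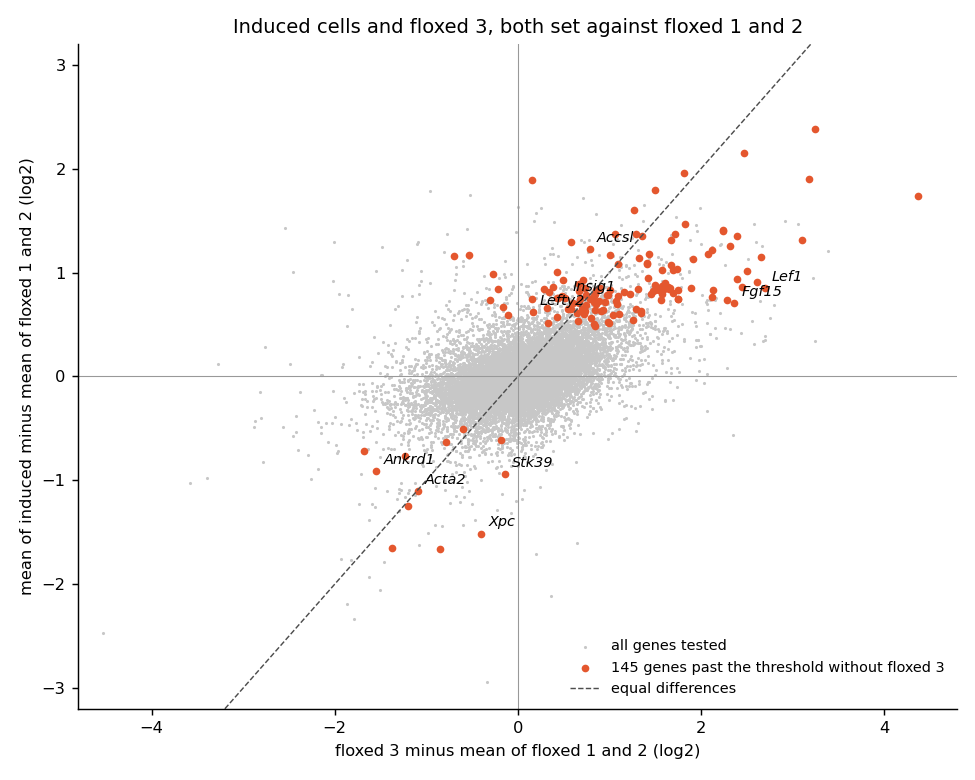
Mean of the induced arrays minus the mean of floxed arrays 1 and 2 (y axis) against floxed array 3 minus the same mean (x axis), both log2, for 19913 genes (grey) and the 145 that passed without floxed array 3 (orange); the dashed line marks equal differences. Both axes share floxed arrays 1 and 2. Stk39 and Lefty2 lie near 0 on the x axis, Lef1 (2.70) and Fgf15 (2.36) far to the right.

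By chromosome, median differences of chromosomes 1 to 19 lay between -0.013 and 0.015 and that of the X chromosome was 0.008. The 30 measured genes of the Y chromosome had a median of 0.13, and against floxed arrays 1 and 2 they stood at 0.01, 0.28 and 0.35 in induced arrays 1 to 3 and at 0.16 in floxed array 3. Of 20 neighbours of Xpc on chromosome 6, 17 were measured, 6 higher and 11 lower with a median of -0.06, none passed and none was without overlap. Hdac11, the neighbour with the smallest p (limma adjusted p = 0.666), was not well above background in any floxed array, and its groups overlapped. With floxed values raised as for Tmem95, its induced mean was 1.53-fold the floxed mean, which is no strict bound and shows no rise past the test.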

How the data were processed

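RNA was labelled with Cy3 and each sample hybridised to 1 array, per the labels' protocols. The deposited scanner files, from Agilent Feature Extraction 10.7.3.1 per the submitters' processing notes, hold intensity per spot (processed signal, mean signal and local background) and flags for outlier, saturated and well above background spots. The deposited series matrix also holds intensity per probe and matched the mean signal in 100% of values within 0.6%. Its scale is therefore known.

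Log2 of the processed signal was taken relative to the 75th percentile of the array. Control and outlier spots were left out, spots of a probe averaged, and the brightest probe kept per gene if well above background on all 3 arrays of a group (27536 probes, 19913 genes). Names came from RefSeq accessions (GRCm38.p6) for 27235 probes, and 28446 kept the name in the file.

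One limma 3.58.1 model (R 4.3.3) of 3 group means over 9 arrays gave differences, 95% intervals and p-values, adjusted by Benjamini-Hochberg (threshold 0.05), and was tested on simulated data. Unless another fit is named, "passed" refers to this model over all genes. "Without overlap" means that the 3 induced arrays lay on 1 side of all 3 floxed arrays. Of all genes tested 6.63% were higher and 6.26% lower in this way. Where no count is given, list members so named are examples. The number of arrays limits the precision.

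The rule named Xpc, Rad23b, Cetn2, every passing gene, the 15 largest and 15 smallest moderated t, the 10 largest differences each way without overlap, the 10 largest each way passing without floxed array 3, up to 3 genes per list with the smallest p, and 6 stem cell factors. Genes with predicted or identifier names were counted, not named. A few genes are not reported here by name and stay in the counts. The groups, gene lists and rule were chosen with earlier results of these data known, and further list members were chosen after their values were seen. Alternatives changed the normalization, background correction, filter, probe summary, arrays, weights, slide or replicate block, and the value table.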

Additional observations from a re-analysis of the deposited data

How the results depend on the processing

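Xpc was lower in all 20 alternatives, with differences from -1.08 to -1.51. The count of genes passing limma's test, 1 as reported, was 0 with quantile normalization (1339 at an unadjusted p under 0.05), 0 with normexp background correction (1000), 0 with no filter on dim probes (2000), 0 with the deposited series matrix (990) and 0 with slide as a random block (820). It was 1120 with array weights, where floxed array 3 had a weight of 0.158, and 174 with slide as a fixed block, which rests on floxed array 3 and the null arrays. The 174 and the 145 genes called without floxed array 3 share 15 genes (8.62% and 10.3%), 3 of them in the same direction, for example Lef1 at 0.85 without floxed array 3 and -1.84 with the block, and Fgf15 at 0.70 and -1.78. Leaving out 1 array at a time gave 0 to 145 genes, with 0 without induced array 1 (1301 at an unadjusted p under 0.05), 2 without floxed array 1, 2 without floxed array 2 and 145 without floxed array 3. With the 6 floxed and induced arrays alone, 1 gene passed, and it was not Tmem95 (adjusted p = 0.0718). Genes without overlap, 2567 as reported, were 7077 against floxed arrays 1 and 2, 14149 against floxed array 3 and 4202 with no filter.

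Some differences changed sign, among them falls of -0.86 in Art3 and Nup214. With slide as a fixed or random block Rad23b was at -0.228 and -0.062 and Cetn2 at -0.397 and -0.096, and with the fixed block Art3 was at 0.094 and Nup214 at 0.185. With array weights Sox2 was at -0.082, Nanog at -0.228, Klf4 at -0.169, Esrrb at -0.086 and Zfp42 at -0.095. Leaving out 1 array at a time gave -0.011 to 0.124 for Rad23b, -0.032 to 0.266 for Cetn2, -0.34 to 0.21 for Pou5f1, -0.11 to 0.12 for Sox2, -0.15 to 0.22 for Nanog, -0.16 to 0.46 for Klf4, -0.092 to 0.436 for Esrrb and -0.11 to 0.24 for Zfp42. The cause was not tested. After the mean of each group was subtracted gene by gene, floxed and induced arrays of the same replicate number correlated at -0.05, -0.00 and 0.08. These deviations thus gave no sign that the replicate number marks a pairing. With replicate number as a block 1 gene passed, Tmem95 had an adjusted p of 0.00739, and Xpc stayed at -1.38. Over the list medians, 632 values moved by less than the spread between replicates and 128 by more.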

Other observations

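Alpha-defensins are antimicrobial peptides of the small intestine, encoded by near-identical genes, and their values are uncertain gene by gene. Chosen after values were seen, 14 such genes were measured. Of these, 11 were higher in induced than in floxed cells by group means, against 9883 of all 19913 genes. Without floxed array 3, 7 passed limma's test as higher, against 0.668% of all genes. Floxed array 3 lay above floxed arrays 1 and 2 in all 14, and the 3 induced arrays lay above floxed arrays 1 and 2 in 11, against 20.1% of all genes. As the genes are near-identical, the 14 are not separate observations.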
